A study of Mus musculus with 6 samples.

Results

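The 10 genes followed here mark pericytes and vascular smooth muscle cells. They were measured in the anterior cingulate cortex of Ythdf1 mice, and are Acta2, Tagln, Myh11, Myl9, Rgs5, Pdgfrb, Anpep, Vtn, Kcnj8 and Abcc9. They were chosen by name, with earlier results of these data known. They are the rows of the deposited gene table that carry these symbols, and all 10 were found among its 55401 genes. The tissue came from adult mice in 2 groups, Ythdf1 knockout (KO, 3 libraries) and Ythdf1 wild type (WT, 3 libraries), and bulk polyadenylated RNA was sequenced. The labels give no allele, strain, sex or exact age, no driver line and no treatment, and they do not say whether each library came from a separate animal. The p-values therefore measure the spread between these libraries, which may be technical. YTHDF1 binds N6-methyladenosine in mRNA, and the series as titled asks how it acts on actin turnover and synapses. Blood vessels are not named in the title.

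Mural cells wrap the vessels of the brain. Smooth muscle cells ring the arteries and arterioles and contract through smooth muscle actin and myosin, while pericytes lie on capillaries, held there by platelet-derived growth factor from the endothelium that acts on the receptor encoded by Pdgfrb. Both kinds of cell set the flow of blood and take part in keeping the blood-brain barrier, and the contractile genes are switched on by serum response factor, with myocardin, at a promoter element called the CArG box. Some of these markers are not exclusive to mural cells: Pdgfrb and Anpep are also made by fibroblasts of the brain's coverings.

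The upstream sequence of 7 of the 10 members was read from RefSeq (build GRCm38.p6), and that of Tagln, Myh11 and Pdgfrb was not analysed here, so that 2 of the 4 contractile genes, Acta2 and Myl9, were examined. For the 7, the 250 bases before each annotated start were searched for the CArG box, a 10-base element that reads the same on both strands. Matches are shown because this element is the known common switch of the contractile genes. An exact match was present in the sequence of Myl9 alone among the 7, against 1.48% of 32536 mouse promoters of the same length. Matches with 1 other base were present in Acta2, Myl9 and Kcnj8, against 17.4% of those promoters. Each match is given below in 30 bases, 5′ to 3′ on the strand of the gene, with the 10 bases of the element in capitals.

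Myl9, exact match, chr2:156775293-156775322, plus strand: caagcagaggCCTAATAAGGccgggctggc
Myl9, 1 other base, chr2:156775355-156775384, plus strand: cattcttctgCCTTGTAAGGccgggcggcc
Acta2, 1 other base, chr19:34255438-34255467, minus strand: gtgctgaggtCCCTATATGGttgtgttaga
Acta2, 1 other base, chr19:34255388-34255417, minus strand: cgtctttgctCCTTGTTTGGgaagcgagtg
Kcnj8, 1 other base, chr6:142571641-142571670, minus strand: gagcagcgagCCTTTTAAAGatgtgtgtgc

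In Myl9 the exact match began 161 bases before the RefSeq start and the other match 99 bases before it. That start lies 44 bases after the GENCODE start, and the Myl9 sequence printed below ends just before the GENCODE start. In Acta2 the matches began 84 and 34 bases before the RefSeq start, inside the first exon of a longer transcript in GENCODE M21, and in Kcnj8 the match began 46 bases before the start. The MCAT element (CATTCC on either strand, bound by TEAD factors) was found in Acta2, Abcc9 and Vtn, and in 12.6% of all promoters. The windows of Rgs5 and Anpep held none of these letters. For contrast with Myl9, the upstream sequence of Rgs5, the member with the most counts, is given in full, and that of Myl9 up to the first exon in GENCODE, with matches in capitals.

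Myl9, chr2:156775214-156775419, plus strand: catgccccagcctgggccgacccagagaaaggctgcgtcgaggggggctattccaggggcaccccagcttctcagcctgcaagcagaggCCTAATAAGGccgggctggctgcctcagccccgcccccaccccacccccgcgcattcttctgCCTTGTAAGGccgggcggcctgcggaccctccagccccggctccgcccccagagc
Rgs5, chr1:169655251-169655500, plus strand: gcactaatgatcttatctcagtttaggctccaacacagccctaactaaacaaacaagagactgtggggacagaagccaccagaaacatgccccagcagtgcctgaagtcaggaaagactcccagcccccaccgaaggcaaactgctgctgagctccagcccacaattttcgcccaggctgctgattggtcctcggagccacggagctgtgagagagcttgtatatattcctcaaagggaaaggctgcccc

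The libraries held 61792250 to 69848835 counts each. Ythdf1 itself stood at 59.2 ± 2.59 CPM (counts scaled to library size, TMM-adjusted) in the libraries labelled KO and 52.7 ± 3.43 CPM in those labelled WT (SD, n = 3 each), so the gene total does not show the knockout, and every direction here goes by the labels. All 15 pairs of libraries differed beyond sampling noise (chi-square over its degrees of freedom, 15.6 to 35.6). The cortex was labelled as the tissue, and the summed level of 8 neuron markers was 9969 to 10528 CPM in KO-labelled and 10285 to 10627 CPM in WT-labelled libraries.

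All 10 pericyte and smooth muscle genes had lower mean levels in the KO-labelled libraries, with log2 fold changes of -0.20 for Abcc9 to -1.45 for Tagln and a median of -0.38, beside a median of -0.0006 over all 20587 genes tested, of which 50.2% were lower. None of the 10 passed the test across all genes: edgeR's quasi-likelihood test with Benjamini-Hochberg adjustment called 0 of them at an adjusted p under 0.05, and 0 genes in all (0.0%; 1083 genes, 5.26%, at an unadjusted p under 0.05). At an unadjusted p under 0.05, 8 of the 10 were lower, where 2.64% of all tested genes were lower at that p, and 0 were higher, where 2.62% were. In 5 of the 10 every KO-labelled library lay below every WT-labelled one, where 5.16% of all tested genes did so, and in 0 did every one lie above, where 5.84% did. The members were chosen with earlier results of these data known, and they moved together across libraries. These counts are therefore not 10 separate results, and their distance from the shares over all genes was not tested. limma voom called 0 of the 10 and 0 genes in all (7 of the 10 and 5.62% of genes at an unadjusted p under 0.05). DESeq2 called 1 of the 10, Acta2, as lower (it called 0.087% of its genes lower and 0.0303% higher), and had 7 of the 10 and 3.66% of genes at an unadjusted p under 0.05. The count of 8 at an unadjusted p was 3 without KO replicate 1, 4 without WT replicate 1 and 3 without WT replicate 3. In these fits 990, 781 and 887 genes in all were at that p, beside 1083 with all 6 libraries. With each library left out in turn, the members' count ran from 3 to 9. In bulk RNA, fewer mural cells and less RNA per mural cell cannot be told apart. Endothelial and leptomeningeal fibroblast markers were lower too, as given below, and the part of those cells in these values was not tested.

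**Figure D1:**
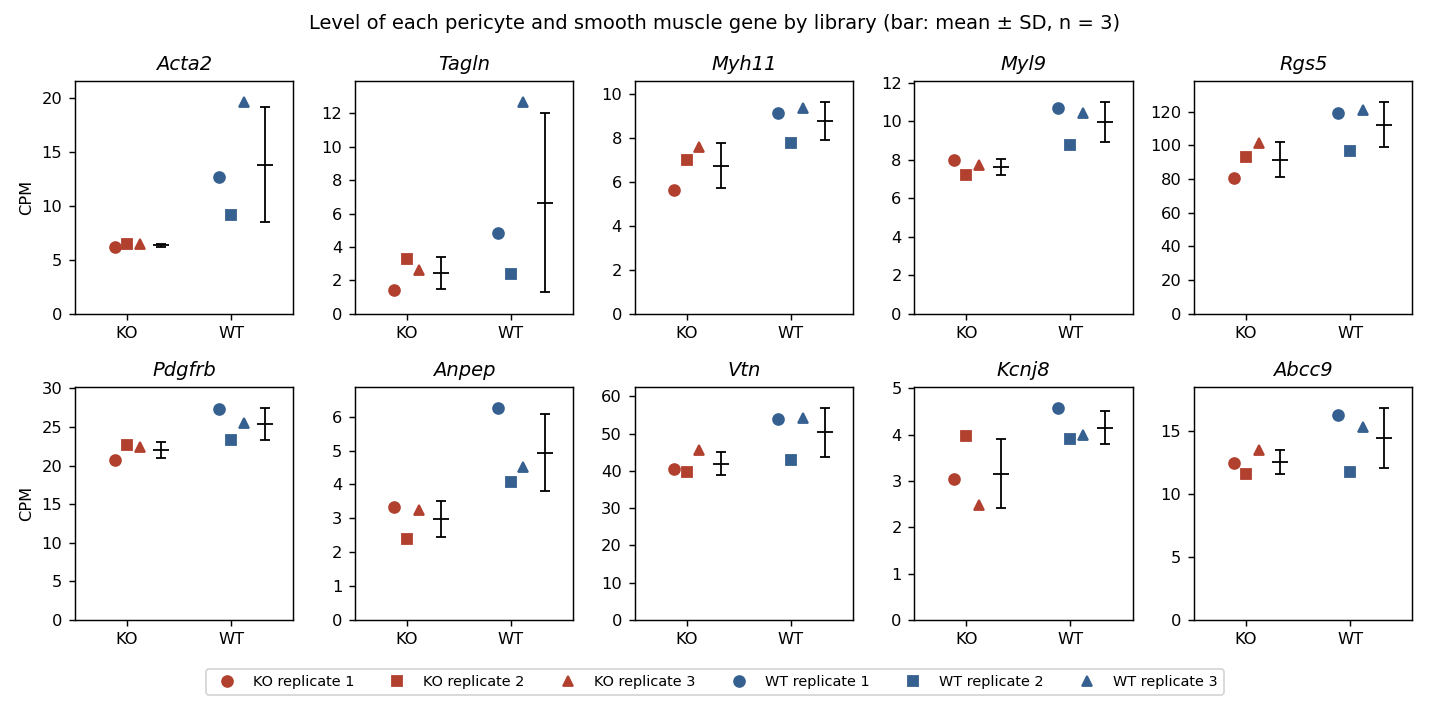
Level of each of the 10 genes in CPM (linear axis from 0), 1 point per library with the shape of the symbol giving the replicate, KO-labelled at the left and WT-labelled at the right, and mean ± SD beside each group of 3. WT replicate 2 (blue square) is the lowest WT-labelled library in every panel, and Acta2 shows the widest gap between the groups relative to the KO-labelled spread (6.16 to 6.44 CPM against 9.16 to 19.6 CPM).

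Of the 4 contractile genes, Acta2 and Tagln gave the largest fold changes of the members and Myh11 and Myl9 smaller ones. Acta2, the actin of smooth muscle (ENSMUSG00000035783, chromosome 19, 34241090 to 34255590 in GRCm38), had 6.16, 6.44 and 6.41 CPM in KO-labelled replicates 1, 2 and 3, against 12.6, 9.16 and 19.6 CPM in WT-labelled replicates 1, 2 and 3. The KO-labelled libraries lay closer together than counting error alone would give at its lowest count of 395, the WT-labelled ones were spread widely, and the groups did not overlap. Its log2 fold change, -1.12 ± 0.24 (standard error, SE; 95% interval -1.66 to -0.59), had an edgeR adjusted p of 0.881. DESeq2 gave an adjusted p of 0.00183 for it, and the range of its adjusted p over the 14 alternative settings was 0.00183 to 1.00. Without WT replicate 3 the log2 fold change was -0.78. In the authors' deposited table of transcripts listed as differing, Acta2 was the 1 member with an entry among 537, through its 9-exon coding transcript of 2035 bases, ENSMUST00000039631. That deposited table gives the transcript 2.81, 2.93 and 2.90 FPKM (a level scaled to transcript length and depth) in KO-labelled replicates and 5.80, 4.22 and 9.01 FPKM in WT-labelled replicates, with a log2 ratio of -1.14 and a q-value of 0.0136.

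Tagln, which encodes the actin-binding protein transgelin (ENSMUSG00000032085, chromosome 9, 45929619 to 45936058), had 1.39, 3.28 and 2.64 CPM in KO-labelled libraries, against 4.84, 2.40 and 12.7 CPM in WT-labelled libraries. WT replicate 3 stood far above the other 5 libraries and WT replicate 2 lay inside the KO-labelled range, so the groups overlapped. The log2 fold change was -1.45 ± 0.54 (SE; edgeR adjusted p = 0.902), and -0.58 without WT replicate 3 (edgeR adjusted p = 0.999). The exons of Tagln share 1241 bases with the antisense gene Gm48529, and no source used here gives the strand setting of the count, so reads of the pair may not have been told apart. Gm48529 had 136, 110 and 137 counts in KO-labelled replicates and 185, 115 and 188 counts in WT-labelled replicates, and 108 bases are shared with Pcsk7 on the opposite strand, which had 1674, 1557 and 1657 counts in KO-labelled replicates and 1647, 1688 and 1627 counts in WT-labelled replicates. Tagln itself had 98 counts in KO replicate 1, its lowest library, fewer than Gm48529 there, and 843 counts in WT replicate 3, its highest. The part of either gene in the Tagln values was not tested.

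Myh11 encodes the myosin heavy chain of smooth muscle (ENSMUSG00000018830, chromosome 16, 14194535 to 14291372). It had 5.64, 6.99 and 7.60 CPM in KO-labelled libraries, against 9.13, 7.76 and 9.38 CPM in WT-labelled libraries. The groups did not overlap, but KO replicate 3 and WT replicate 2 nearly met. Its log2 fold change was -0.38 ± 0.15 (SE; edgeR adjusted p = 0.93). Myl9, the regulatory light chain whose phosphorylation starts contraction (ENSMUSG00000067818, chromosome 2, 156775420 to 156781658), had 7.98, 7.19 and 7.75 CPM in KO-labelled libraries, against 10.7, 8.76 and 10.4 CPM in WT-labelled libraries. All 3 KO-labelled libraries lay below WT replicate 2, the lowest of the WT-labelled ones. Its log2 fold change was -0.38 ± 0.12 (SE; 95% interval -0.66 to -0.10; edgeR adjusted p = 0.881).

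Of the signalling genes, Rgs5, a GTPase-activating protein that shortens G protein signals in pericytes (ENSMUSG00000026678, chromosome 1, 169655501 to 169695813), had 80.4, 92.8 and 101.0 CPM in KO-labelled libraries, against 119.0, 96.7 and 120.7 CPM in WT-labelled libraries. WT replicate 2 lay below KO replicate 3, and the other WT-labelled libraries lay above all KO-labelled ones. With 5659 to 8030 counts per library Rgs5 was the most deeply counted member, and its log2 fold change was -0.30 ± 0.10 (SE; edgeR adjusted p = 0.881). Pdgfrb, the receptor that holds pericytes on capillaries (ENSMUSG00000024620, chromosome 18, 61045150 to 61085061), had 20.8, 22.7 and 22.4 CPM in KO-labelled libraries, against 27.4, 23.3 and 25.5 CPM in WT-labelled libraries. The groups did not overlap, and the gap between KO replicate 2 and WT replicate 2 was narrow. Its log2 fold change of -0.21 (SE 0.086, edgeR adjusted p = 0.93) was among the smallest of the members.

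Anpep encodes aminopeptidase N, a surface enzyme of pericytes also known as CD13 (ENSMUSG00000039062, chromosome 7, 79821803 to 79861059). It had 3.32, 2.38 and 3.25 CPM in KO-labelled libraries, against 6.25, 4.07 and 4.51 CPM in WT-labelled libraries. The groups did not overlap, and Anpep had the largest log2 fold change outside the contractile genes, -0.73 ± 0.22 (SE; 95% interval -1.21 to -0.24; edgeR adjusted p = 0.881; 146 to 416 counts per library). Vtn, the adhesive matrix protein vitronectin, bound by integrins (ENSMUSG00000017344, chromosome 11, 78499091 to 78502324), had 40.6, 39.7 and 45.5 CPM in KO-labelled libraries, against 54.0, 42.8 and 54.1 CPM in WT-labelled libraries. WT replicate 2 lay below KO replicate 3, so the groups overlapped, and the log2 fold change was -0.26 ± 0.099 (SE; edgeR adjusted p = 0.903).

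Kcnj8 and Abcc9 encode the pore (Kir6.1) and the sulfonylurea receptor (SUR2) of the ATP-sensitive potassium channel of vessels, and lie next to each other on the minus strand of chromosome 6. Kcnj8 (ENSMUSG00000030247, 142564837 to 142571614) had 3.04, 3.96 and 2.48 CPM in KO-labelled libraries, against 4.57, 3.90 and 3.98 CPM in WT-labelled libraries. KO replicate 2 lay among the WT-labelled libraries, and the log2 fold change was -0.39 ± 0.20 (SE; 95% interval -0.85 to 0.06; edgeR adjusted p = 0.944; 156 to 304 counts per library). Without KO replicate 3 it was -0.25. Abcc9 (ENSMUSG00000030249, 142587862 to 142702315) had 12.5, 11.6 and 13.5 CPM in KO-labelled libraries, against 16.3, 11.8 and 15.3 CPM in WT-labelled libraries. WT replicate 2 fell inside the KO-labelled range, and the log2 fold change of -0.20 (SE 0.13, 95% interval -0.51 to 0.10; edgeR adjusted p = 0.966) was -0.11 without WT replicate 1 and -0.34 without WT replicate 2. These were the 2 members whose 95% interval reached above 0.

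**Figure D2:**
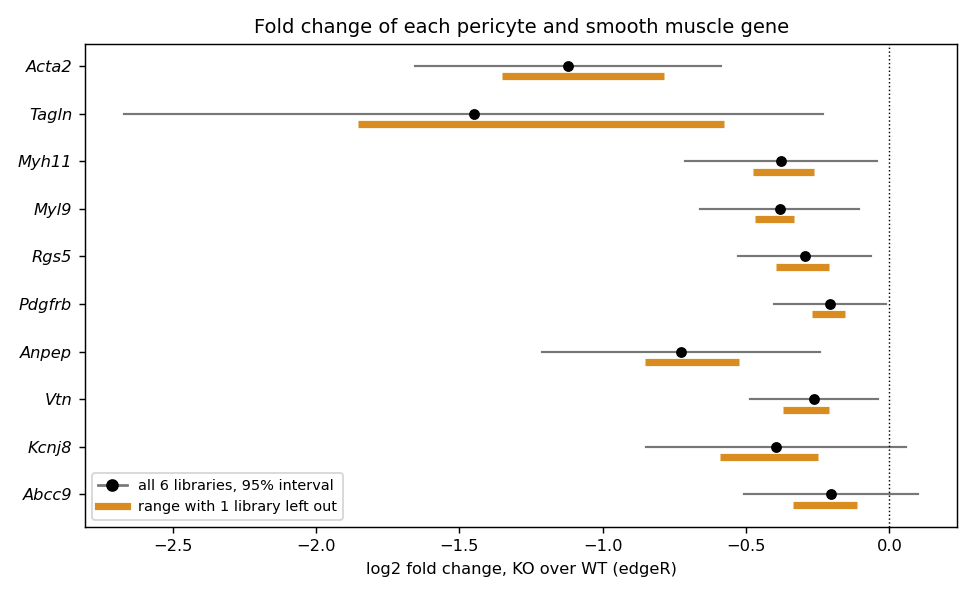
Log2 fold change of each gene, KO-labelled over WT-labelled, from edgeR over all 6 libraries (black point, with its 95% interval as a grey line) and the range when 1 library is left out (orange bar). Every point and every orange bar lies below 0, the interval reaches above 0 for Kcnj8 and Abcc9, and leaving out a library moves Tagln the most, between -1.85 and -0.58.

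The members shared a pattern across libraries as well as between groups. WT replicate 2 was the lowest WT-labelled library for all 10 genes, and the highest library of the 6 was WT replicate 1 for 5 genes and WT replicate 3 for the other 5. Acta2, Tagln, Myh11, Rgs5 and Vtn peaked in WT replicate 3, and Myl9, Pdgfrb, Anpep, Kcnj8 and Abcc9 in WT replicate 1. The lowest library was KO replicate 1 for 5 genes, KO replicate 2 for 4 and KO replicate 3 for Kcnj8. Relative spread differed between the members: in WT-labelled libraries the SD was 80.8% of the mean for Tagln and 38.5% for Acta2, but 8.08% for Pdgfrb and 8.72% for Kcnj8, while in KO-labelled libraries it was 39.4% for Tagln and 2.41% for Acta2.

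Levels of different genes were compared per kilobase of merged exon. Vtn and Rgs5 were the most abundant members, at 20.6 ± 1.53 and 20.1 ± 2.29 CPM per kilobase in KO-labelled libraries and 24.8 ± 3.19 and 24.7 ± 2.95 CPM per kilobase in WT-labelled libraries (SD, n = 3 each), and their ranges overlapped in both groups. Myl9 came next, at 6.57 ± 0.35 in KO-labelled and 8.57 ± 0.90 CPM per kilobase in WT-labelled libraries, below Rgs5 without overlap in either group and above Pdgfrb without overlap in KO-labelled libraries. Acta2 was at 2.89 ± 0.069 CPM per kilobase in KO-labelled libraries, below Pdgfrb at 4.01 ± 0.19 without overlap, whereas in WT-labelled libraries Acta2 was at 6.28 ± 2.42 and Pdgfrb at 4.63 ± 0.37 CPM per kilobase with overlapping ranges. Tagln was at 1.22 ± 0.48 CPM per kilobase in KO-labelled and 3.34 ± 2.70 in WT-labelled libraries, and in both groups its range overlapped those of its neighbours in the order. Abcc9, Kcnj8, Anpep and Myh11 were also low, with means of 0.72 to 1.50 CPM per kilobase in KO-labelled and 1.15 to 1.72 in WT-labelled libraries. Among neighbours in that low range, Abcc9 lay below Acta2 without overlap in KO-labelled libraries, Kcnj8 lay above Anpep without overlap in WT-labelled libraries, and the channel subunits Abcc9 and Kcnj8 overlapped in both groups.

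**Figure D3:**
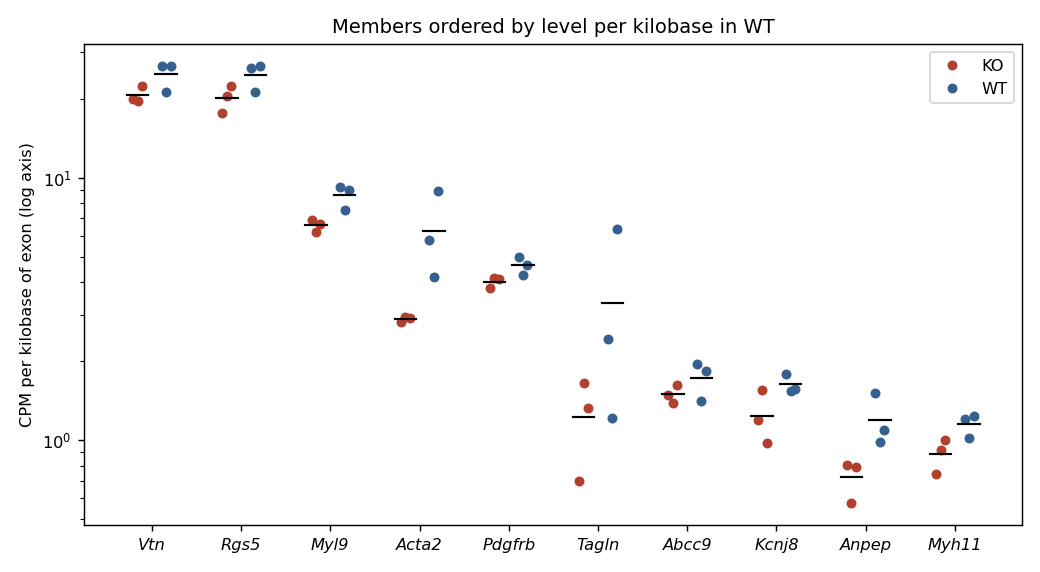
Level of each gene per kilobase of merged exon (CPM per kilobase, log axis), 1 point per library, KO-labelled left of WT-labelled, with the mean of each group as a bar; genes run from high to low by WT-labelled mean. Vtn and Rgs5 stand near 20 to 25, Anpep and Myh11 near 1, and Acta2 changes places with Pdgfrb between the groups.

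Other genes of the same pathways were read from lists. Of 26 further genes of the smooth muscle contractile apparatus, all tested, 18 were lower and 8 higher in KO-labelled libraries, with a median log2 fold change of -0.07, which was -0.049 without KO replicate 1, -0.21 without KO replicate 3, -0.15 without WT replicate 2 and -0.115 without KO replicate 2 or WT replicate 3. At an unadjusted p under 0.05, 7 were lower and 1 higher, where 2.64% and 2.62% of all tested genes were, and edgeR and DESeq2 called 0. Pln, the brake on the calcium pump of the sarcoplasmic reticulum, was at 66.8 ± 5.71 CPM in KO-labelled and 81.6 ± 7.18 CPM in WT-labelled libraries (SD, n = 3 each), with a log2 fold change of -0.29. The actin-binding genes Cald1 (caldesmon), Smtn (smoothelin) and Tpm1 (a tropomyosin) had log2 fold changes of -0.43, -0.48 and -0.20 with overlapping groups. The 1 higher gene was Myl6, a myosin light chain made in many cell types, at a log2 fold change of 0.13, and it was named after its values were seen. Among 8 genes of serum response factor, its partners and the factors set against it, 0 were at an unadjusted p under 0.05 with edgeR. Over all tested genes 5.26% were, so this count is near that share. DESeq2 called 0 of the 8. Of these genes 6 were lower, with a median of -0.04, and from -0.079 to -0.004 with 1 library left out. The median was nearest to 0 without WT replicate 3 and then KO replicate 1, and farthest without WT replicate 2 and then KO replicate 3. Srf itself was at 34.6 ± 2.86 CPM in KO-labelled and 33.4 ± 1.96 CPM in WT-labelled libraries.

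Among 6 other genes of platelet-derived growth factor signalling, 3 were lower and 3 higher, with a median of 0.00, and 5 were lower without KO replicate 2. The ligand of the mural receptor, Pdgfb, was at 27.1 ± 6.38 CPM in KO-labelled and 29.7 ± 5.11 CPM in WT-labelled libraries, with a log2 fold change of -0.13 that was 0.04 without KO replicate 1. At an unadjusted p under 0.05, 1 of the 6 was lower, the ligand Pdgfc, where 2.64% of all tested genes were. Pdgfc was at 5.65 ± 1.01 CPM in KO-labelled and 7.21 ± 0.13 CPM in WT-labelled libraries (log2 -0.35, edgeR adjusted p = 0.93). Its log2 fold change was -0.23 without KO replicate 3. The other channel subunits of the family, Kcnj11 and Abcc8, which form the channel of neurons and of insulin-secreting cells, had log2 fold changes of 0.04 and 0.03, both of which turned below 0 without WT replicate 1. Of 7 integrin subunits that bind vitronectin, 6 were lower with a median of -0.08, and Itgav, the shared alpha subunit, was at 111.9 ± 6.40 CPM in KO-labelled and 122.2 ± 6.35 CPM in WT-labelled libraries. Of 9 other RGS proteins of the R4 family, 6 were tested and 5 were lower, with a median of -0.10. Rgs4 was at 486.8 ± 42.2 CPM in KO-labelled and 526.2 ± 43.6 CPM in WT-labelled libraries. Among 6 genes of angiotensin processing and its receptor, 4 were lower, and Enpep, a second aminopeptidase of pericytes, was at 3.02 ± 0.44 CPM in KO-labelled and 4.28 ± 0.98 CPM in WT-labelled libraries (log2 -0.51, edgeR adjusted p = 0.93). The largest log2 fold change of these 6 went the other way: Agtr1a, the angiotensin receptor, had 1.16, 1.08 and 1.33 CPM in KO-labelled replicates, against 0.586, 0.521 and 1.07 CPM in WT-labelled replicates. The groups did not overlap, and its log2 fold change was 0.72 ± 0.35 (SE; edgeR adjusted p = 0.933), or 1.10 without WT replicate 3.

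A wider list of 30 mural cell markers gave a median nearer to 0 than that of the 10 members. Of the 29 tested, 22 were lower and 7 higher, and the median log2 fold change was -0.09 (-0.20 without WT replicate 2). At an unadjusted p under 0.05, 3 were lower, where 2.64% of all tested genes were, and edgeR and DESeq2 called 0. These 3 were Foxd1, a forkhead factor of pericyte precursors, at 0.413 ± 0.097 CPM in KO-labelled and 1.02 ± 0.48 CPM in WT-labelled libraries, Slc30a10, a manganese transporter, with a log2 fold change of -0.26, and Aspn, the small proteoglycan asporin, with -0.54 (-0.35 without WT replicate 1). The proteoglycan NG2, Cspg4, which oligodendrocyte precursors also make, was at 21.1 ± 0.96 CPM in KO-labelled and 22.5 ± 2.23 CPM in WT-labelled libraries, and the mural receptor Notch3 had a log2 fold change of -0.36 (SE 0.20), at -0.17 with KO replicate 1 left out and -0.64 with KO replicate 3 left out. Cspg4 and Notch3 were named after their values were seen. The difference between the lists was not tested.

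Endothelial and leptomeningeal fibroblast markers, of cells next to mural cells, were also lower in the KO-labelled libraries. All 22 endothelial markers were lower (median log2 fold change -0.34), with a summed level of 399.0 to 552.3 CPM in KO-labelled and 495.0 to 657.5 CPM in WT-labelled libraries, and 0 of them had a count of 0 in any library. All 20 leptomeningeal fibroblast markers were lower, with a median of -0.84 and a summed level of 118.5 to 147.6 CPM in KO-labelled and 164.6 to 320.5 CPM in WT-labelled libraries, again with 0 at a count of 0. edgeR called 0 of either list. At an unadjusted p under 0.05, 12 endothelial and 17 leptomeningeal markers were lower, where 2.64% of all tested genes were. Every KO-labelled library lay below every WT-labelled one for 2 endothelial and 14 leptomeningeal markers, where 5.16% of all tested genes did so. With 1 library left out, the median ran from -0.49 to -0.26 for the endothelial list and from -1.06 to -0.61 for the leptomeningeal list. DESeq2's calls in these lists numbered 1 and 7, where it called 0.087% of its genes lower and 0.0303% higher. The summed level of the 10 members was 181.7 to 212.6 CPM in KO-labelled and 210.6 to 276.0 CPM in WT-labelled libraries. For both neighbouring lists, as for the members, WT replicate 2 was the lowest WT-labelled library. All 6 choroid plexus markers were lower too, with a median of -0.58 that was 0.13 without WT replicate 3, -1.13 without KO replicate 1 and -0.32 without KO replicate 2. Their summed level was 23.8, 4.7 and 4.2 CPM in KO-labelled replicates, against 5.5, 10.7 and 50.3 CPM in WT-labelled replicates, and Folr1 had a count of 0 in at least 1 library. WT replicate 3, the highest, is also the library in which Acta2, Tagln, Myh11, Rgs5 and Vtn were highest. KO replicate 1, the next highest, had the lowest Acta2 (6.16 CPM) and Tagln (1.39 CPM) of the 6 libraries. Of the mature oligodendrocyte markers, 8 of 8 were higher, with a median of 0.37 (0.19 without KO replicate 1, which held the highest sum) and a summed level of 4253 to 6470 CPM in KO-labelled and 3791 to 4525 CPM in WT-labelled libraries. Other lists lay nearer to 0. Of 8 astrocyte markers 7 were lower (median -0.05), and of 8 microglia markers 5 were lower and 3 higher (median -0.01). Red blood cell markers were higher in 5 of 5 (median 0.07). Each of these medians changed sign in at least 1 fit with a library left out. The part of these cell types in the members' levels was not tested.

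The members were also read relative to these lists within each library, as the mean log2 deviation of a list from the mean of the 6 libraries. The 6 members that are not contractile stood at 0.17, 0.08 and -0.23 relative to the endothelial markers in KO-labelled replicates 1, 2 and 3, against 0.07, 0.05 and -0.14 in WT-labelled replicates 1, 2 and 3. On that scale the groups overlapped fully. The 4 contractile members stood at -0.22, 0.01 and -0.36 in KO-labelled replicates, against 0.10, -0.05 and 0.53 in WT-labelled replicates, with WT replicate 2 inside the KO-labelled range. Relative to the leptomeningeal markers the 6 members that are not contractile stood at 0.19, 0.47 and 0.09 in KO-labelled replicates, against -0.58, 0.02 and -0.21 in WT-labelled replicates, so every KO-labelled library lay above every WT-labelled one. On the same scale the 4 contractile members stood at -0.20, 0.41 and -0.04 in KO-labelled replicates, against -0.55, -0.08 and 0.46 in WT-labelled replicates, and overlapped.

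**Figure D4:**
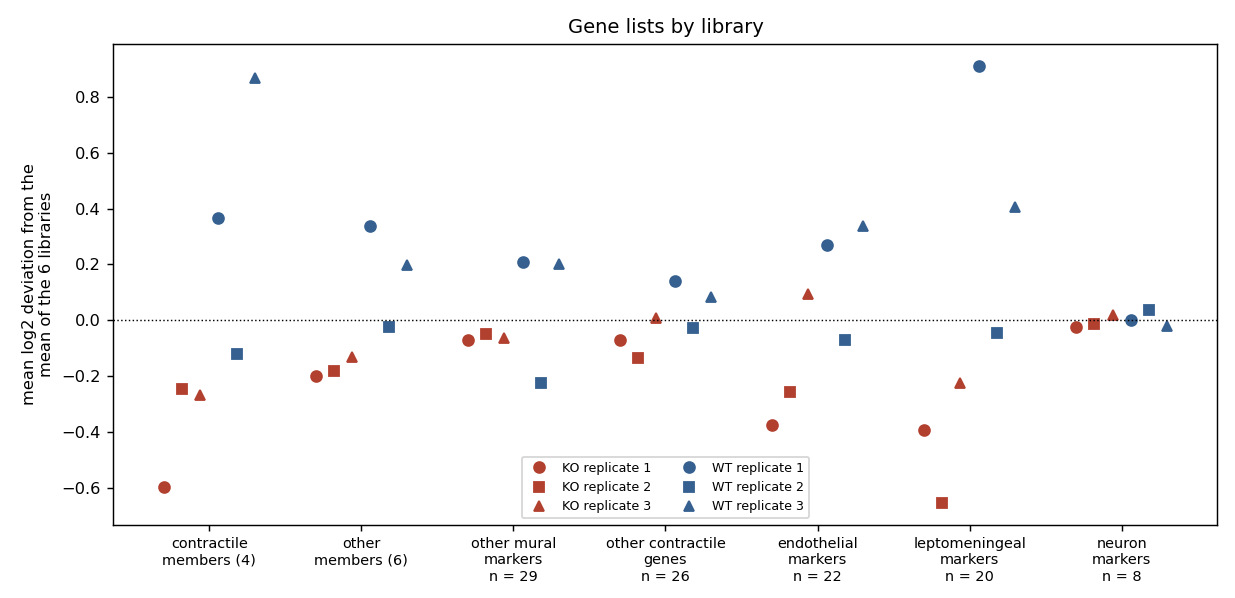
Mean log2 deviation of each gene list from the mean of the 6 libraries, 1 point per library, KO-labelled (red) left of WT-labelled (blue), with the shape of the symbol giving the replicate. WT replicates 1 and 3 stand highest for the vascular and leptomeningeal lists, WT replicate 3 leads in the contractile members (0.87) and WT replicate 1 in the leptomeningeal markers (0.91), while the neuron markers lie near 0 in all libraries.

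The genes outside the list whose levels over the 6 libraries most resembled the mean standardised profile of the members were ranked by Pearson's r. The 13363 candidates had a mean of at least 1 CPM. Genes with clone, predicted-gene, mitochondrial-genome or pseudogene names, and pseudogenes by type, were left out of them. The profile stood at -0.95, -0.64 and -0.44 in KO-labelled replicates 1, 2 and 3, and at 1.12, -0.16 and 1.07 in WT-labelled replicates 1, 2 and 3. The closest was Lama1, a laminin chain of basement membranes (r = 0.993 over 6 libraries), at 1.83, 2.36 and 2.57 CPM in KO-labelled replicates and 5.17, 2.63 and 5.17 CPM in WT-labelled replicates. It was followed by Glt8d1, Mfap4, Eps15l1, Igfbp2, Grm3, Arhgap29, Timp3, Uba7 and Tnnt2 (r = 0.979 to 0.986). Among them, Mfap4 is a protein of elastic fibres, Timp3 an inhibitor of metalloproteinases held in the matrix, and Igfbp2 an insulin-like growth factor binding protein that is also in the leptomeningeal list. The most opposite were Msl2, Plekho1 and Kif6 (r = -0.994 to -0.989). These values describe 6 libraries that all genes share, and carry no test.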

How the data were processed

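Counts per gene were deposited by the authors as whole numbers for 55401 genes in 6 libraries, with no normalization. The submitters' processing notes name cutadapt 1.9, HISAT2 2.2.1, StringTie 2.1.6, DESeq2 and edgeR. How genes were counted, on which build and whether by strand is not given in the sources used here, though the kit itself marks strand. FPKM values per transcript, log2 ratios, p-values and q-values are from the authors' deposited table of listed transcripts, which follows the direction KO over WT. Symbols, exons and positions are from GENCODE M21 (GRCm38), found for 55141 genes; the others held 0.008% of all counts and stayed in.

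All genes were filtered with filterByExpr, scaled by TMM (factors 0.993 to 1.01) and tested with edgeR 4.0.16 (R 4.3.3) by the quasi-likelihood F-test, KO over WT, no covariate, Benjamini-Hochberg adjusted over 20587 genes, with 0.05 as the threshold; the steps were checked on simulated counts. CPM is relative to the TMM-scaled library size. The SE of an edgeR log2 fold change was computed from the test, as its absolute value over the square root of F. The 95% intervals were built from that SE with the t distribution, and edgeR does not report them itself. An exact permutation test of 3 against 3 cannot go below p = 0.1 and was not used. Alternatives were DESeq2 1.42.0, limma 3.58.1 voom, other scaling, other filters, a replicate block and each library left out. A pseudocount of 0.1 CPM was used for library patterns. No member had another gene matching at 95% identity over 150 bases (blastn), apart from the antisense partners of Tagln and Abcc9; 5330439B14Rik, that of Abcc9, had 0 counts. The members and lists were chosen with earlier results of these data known. The rule for named genes took the 10 members, Ythdf1, up to 4 genes of each other list by smallest unadjusted p, and the 10 genes most like and 3 most unlike the members' profile; Myl6, Cspg4 and Notch3 were added after their values were seen.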

Additional observations from a re-analysis of the deposited data

How the results depend on the processing

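Under all 14 alternatives, all 10 members were lower in the libraries labelled KO, and of 140 values of single members 140 kept that direction and 1 passed the threshold (Acta2 with DESeq2). The median log2 fold change of the members was -0.39 to -0.37 under other tests, scalings and filters, and -0.45 to -0.32 with 1 library left out. The number of genes called was 0 under other scalings, filters and limma voom, 31 with DESeq2 (23 lower and 8 higher), and 0 to 2 with 1 library left out. With the replicate number as a block, 0 genes were called, 916 were at an unadjusted p under 0.05 and the members' median was -0.38; same-numbered libraries deviated together with r = -0.04, 0.04 and 0.03, so the numbers were not taken to pair them. Leaving out 1 library turned the sign of Abcc8 (-0.039 to 0.13), Kcnj11 (-0.0092 to 0.090), Pdgfb (-0.29 to 0.042) and Pdgfra (-0.086 to 0.040), and the cause was not tested. The number of lower genes among the other PDGF genes was 5 without KO replicate 2. Depth limits Tagln (98 counts in its lowest library), Anpep (146) and Kcnj8 (156) the most among the members.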

Other observations

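The authors' deposited table also listed 10 transcripts of genes in the other lists, each with the direction KO over WT. A transcript of endothelial Eng has a log2 ratio of -1.27 there (q-value 2.91e-06), and the gene total had -0.60. Leptomeningeal Itih2 and Ogn have -1.42 and -1.25 there (q-values 0.0279 and 0.0414), and -1.41 and -1.24 on gene counts. A transcript of Tead1 is listed as higher (q-value 0.0280), at 0 FPKM in the WT-labelled libraries. Retained-intron transcripts of Slc17a7, a neuron marker, are listed as lower. A coding transcript of Pth1r, a parathyroid hormone receptor found on mural cells (ENSMUST00000166716), is given there at 0.153, 1.35 and 0.903 FPKM in KO-labelled replicates and 0.024, 0.074 and 0.034 FPKM in WT-labelled replicates, with a q-value of 0.000312 in the authors' deposited table. On gene counts, the highest log2 fold change of any tested gene in the wider mural list, which holds Pth1r, was 0.28. That is the extreme of the list, and the value of Pth1r itself is not given here. A coding transcript of the ligand Pdgfa (ENSMUST00000110897) is given in the authors' deposited table at 0.380 to 0.877 FPKM in KO-labelled replicates and 1.23 to 2.46 FPKM in WT-labelled replicates, with a q-value of 0.0343. On gene counts, Pdgfa had a log2 fold change of 0.07 (SE 0.080, edgeR adjusted p = 0.975). A coding transcript of Aspn (ENSMUST00000177948) is listed at 0 in the KO-labelled libraries of the authors' deposited table and at 0.283, 0.037 and 0.129 FPKM in the WT-labelled ones. The gene total of Aspn had reads in every library, with a log2 fold change of -0.54. Igf2, a growth factor of the leptomeninges, had a transcript (ENSMUST00000105936) listed at 0 in the KO-labelled libraries of the authors' deposited table and at 3.93, 0.872 and 0.080 FPKM in the WT-labelled ones. The gene total of Igf2 had reads in every library. The lowest log2 fold change on gene counts in the leptomeningeal list, which holds Igf2, was -1.48, and the value of Igf2 itself is not given here.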
